A study of Gallus gallus with 6 samples.

Results

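The miRNAs miR-451, miR-144-3p and miR-144-5p were followed in hen liver as the 3 mature products of the miR-144 and miR-451 cluster. They were taken by name from the 565 mature chicken miRNAs listed by the study, and all 3 were found. Small RNA was sequenced from the livers of hens at 30 weeks of age (L30) and at 20 weeks (L20), with 3 libraries per age. The study does not state how many hens gave each library, and each library is taken here as 1 liver. The sample labels call L30 egg-laying and L20 juvenile, whereas the study describes the 20-week hens as pre-laying and both ages as sexually mature. The hens were healthy females of the Lushi green-shell breed, caged under the same conditions with food and water freely available. RNA came from whole liver tissue, in which fewer cells of a type cannot be told apart from less RNA per cell.

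The miR-144 and miR-451 hairpins are transcribed together and are best known from red blood cells, where in mouse the transcription factor GATA1 drives the cluster. Hairpin miR-451 is unusual, because in mouse and zebrafish it is cut by the Argonaute protein AGO2 and not by Dicer, and it yields a single main product. Hairpin miR-144 is processed by Dicer and yields a 5p and a 3p arm. In mice lacking miR-451, red cells form less well and are more easily damaged by oxidants. Red cells of birds keep their nucleus, unlike those of mammals. In the RefSeq annotation of the chicken, both hairpins lie next to each other within the lncRNA LOC121107271, between the protein-coding genes ERAL1 and FLOT2. The miR-451 hairpin is named MIR451B there and was matched through a synonym. No sequence of the 3 miRNAs was analysed here.

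The libraries held from 3864984 to 8804077 counted miRNA reads in L30 and from 7135289 to 14822854 in L20. Counted miRNAs made up 45.0%, 33.2% and 18.2% of the clean reads in L30-1, L30-2 and L30-3, and 58.0%, 55.8% and 49.1% in L20-1, L20-2 and L20-3. The levels of the 3 miRNAs ranked the libraries in nearly the same order as this share did. Each level is therefore given under 2 scalings. TPM is the number of reads per 1000000 clean reads of a library and falls with its miRNA share. RPM is used here for the number per 1000000 counted miRNA reads, which compares a miRNA only with the other miRNAs of its library.

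All 3 miRNAs were lower in L30 livers. Mean miR-451 was 3.44-fold lower in TPM and 2.16-fold lower among the counted miRNA reads, and miR-144-3p was 3.19-fold and 2.07-fold lower. For miR-144-5p the values were 2.74-fold and 1.71-fold. Of the 3, miR-451 was significant under both scalings and miR-144-3p under TPM scaling, whereas miR-144-5p lay just above the threshold under both. Among all tested miRNAs, 24.6% were called as lower with the clean reads and 16.1% with the summed miRNA counts. The fold difference in edgeR with the clean reads depended on single libraries. It was 5.19 for miR-451 and 5.55 for miR-144-3p without L30-1, and 2.65 and 2.39 without L30-3. Both calls with the clean reads, and that of miR-451 with the summed miRNA counts, were lost on leaving out certain libraries, as given below.

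MiR-451 was by far the most abundant product of the cluster, with 95.7% to 96.2% of its reads in L30 and 96.1% to 96.7% in L20. It reached 1145, 632 and 277 TPM in L30-1, L30-2 and L30-3, against 2457, 3075 and 1536 TPM in L20-1, L20-2 and L20-3. All L30 libraries lay under all L20 libraries. The means were 685 ± 436 TPM in L30 and 2356 ± 774 TPM in L20 (SD, n = 3 each). Among the miRNAs of each library, miR-451 ranked from 32nd to 39th by count in L30 and from 21st to 30th in L20, so it stood in the upper range of the list in every liver, well below the hepatocyte miRNA miR-122-5p.

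Against the counted miRNA reads, miR-451 had 2544, 1903 and 1524 RPM in L30-1, L30-2 and L30-3, against 4238, 5509 and 3131 in L20-1, L20-2 and L20-3. The ages again did not overlap. The L30 livers lay closer together than in TPM, with a 1.67-fold spread between the highest and the lowest library, whereas it was 4.14-fold in TPM. The exact two-sided permutation test of this share gave p = 0.1, which is the lowest value possible for 3 livers per age (adjusted p = 0.24 over 6 exact tests).

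The 2 arms of miR-144 were much scarcer. MiR-144-3p ranked from 109th to 125th by count in L30 and from 97th to 110th in L20, and miR-144-5p from 115th to 127th in L30 and from 106th to 114th in L20. MiR-144-3p had 30.7, 13.7 and 5.5 TPM in L30-1, L30-2 and L30-3, against 63.1, 63.4 and 32.7 TPM in L20-1, L20-2 and L20-3. Again L30-1 was the highest L30 library, and it nearly reached L20-3. Among the counted miRNA reads the arm had 68.3, 41.2 and 30.3 RPM in L30-1, L30-2 and L30-3, against 109, 114 and 66.6 in L20-1, L20-2 and L20-3. The ages overlapped under this scaling, with L30-1 slightly above L20-3 (exact two-sided permutation test, p = 0.2, n = 3 each, adjusted p = 0.24 over 6 exact tests).

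MiR-144-5p had 21.3, 12.6 and 5.41 TPM in L30-1, L30-2 and L30-3, against 36.6, 42.8 and 28.1 TPM in L20-1, L20-2 and L20-3. Its shares were 47.4, 37.9 and 29.8 RPM in L30-1, L30-2 and L30-3, against 63.2, 76.7 and 57.3 in L20-1, L20-2 and L20-3. The ages did not overlap under either scaling. The arm was the least variable of the 3 products, with a 1.59-fold spread of this share in L30 and a 1.34-fold spread in L20. Its lowest count was 115 reads, in L30-3, and the lowest count of miR-144-3p was 117 reads in the same library, far above the limit of 3 counts used for detection.

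**Figure D1:**
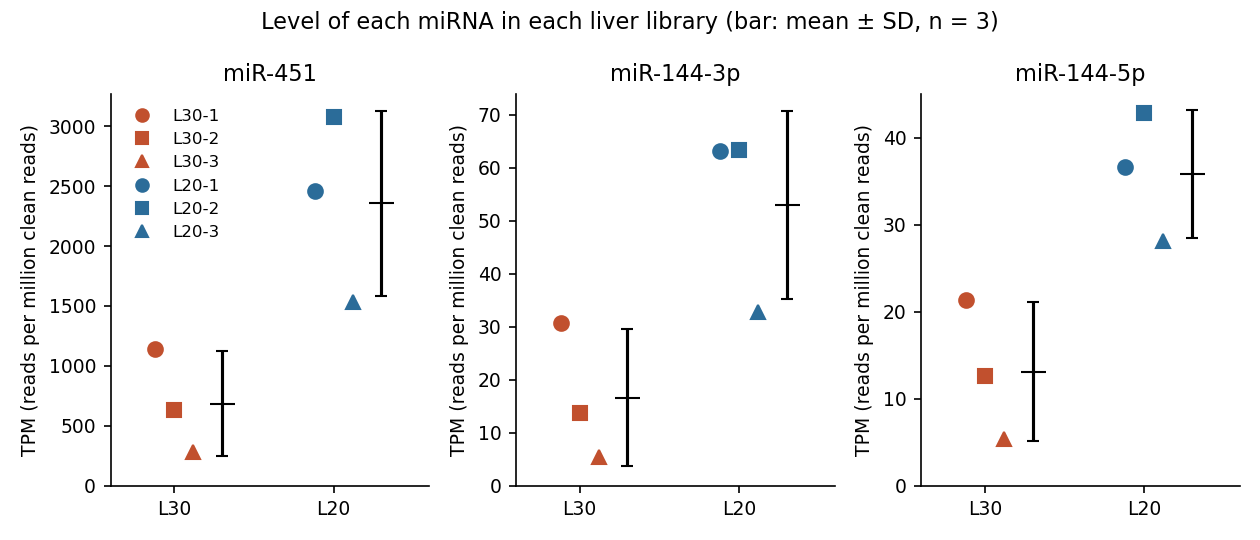
Levels of miR-451, miR-144-3p and miR-144-5p in TPM (linear axes from 0) in the 3 L30 and 3 L20 libraries, with 1 symbol per library and a bar for the mean ± SD (n = 3). For each miRNA all L30 libraries lie under all L20 libraries, and L30-1 (1145 TPM for miR-451) lies closest to L20-3 (1536 TPM).

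All 3 products thus lay lower in every L30 than in every L20 library in TPM. This was the case for 109 of the 236 miRNAs tested, or 46.2%, so the separation in TPM is common in these libraries. Among the counted miRNA reads it held for miR-451 and miR-144-5p, and for 65 of the 236 tested miRNAs, or 27.5%.

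Differences between the ages were tested over all 236 miRNAs with sufficient counts, using the quasi-likelihood test of edgeR (p adjusted after Benjamini and Hochberg) with library sizes set to the clean reads. In L30, miR-451 fell by 1.78 log2 units ± 0.48 (standard error; edgeR adjusted p = 0.00279), with a 95% interval of −2.73 to −0.84. MiR-144-3p fell by 1.67 ± 0.57 (edgeR adjusted p = 0.0213), with an interval of −2.80 to −0.55. The value for miR-144-5p was −1.45 ± 0.59, which did not pass (edgeR adjusted p = 0.0536). Hence 2 of the 3 were called as lower at an adjusted p of at most 0.05, where 24.6% of the tested miRNAs were called as lower and 0 as higher. Without adjustment, 92 miRNAs had a p of at most 0.05, of which 4 were higher in L30. As higher in L30, DESeq2 with its own size factors called 42 miRNAs, Fisher's exact test on pooled counts 31 and limma 0. The median log2 fold change over all tested miRNAs was −0.86, and relative to it the values were −0.92 for miR-451, −0.81 for miR-144-3p and −0.59 for miR-144-5p. The call of miR-451 was lost without L20-2 (edgeR adjusted p = 0.0901) and without L30-2 (0.0803). That of miR-144-3p was lost without L20-1 (0.134), L20-2 (0.19), L30-2 (0.153) or L30-3 (0.0932), and miR-144-5p was called without L30-1 (0.0114).

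With the summed miRNA counts as library sizes, the median over all tested miRNAs was −0.10, and 16.1% of them were called as lower and 12.3% as higher. Here miR-451 fell by 1.11 ± 0.27 log2 units (edgeR adjusted p = 0.0184). Only 28 of the 236 miRNAs had a lower log2 fold change than miR-451. MiR-144-3p, at −1.04 ± 0.35 (edgeR adjusted p = 0.0551), and miR-144-5p, at −0.77 ± 0.26 (edgeR adjusted p = 0.0527), were not called. In this scaling miR-451 was not called without L20-2 (edgeR adjusted p = 0.0647), L30-2 (0.0532) or L30-3 (0.0538), and miR-144-3p was called without L30-1 (0.0275). The log2 fold changes of all 3 products were negative under each of the 6 library sizes or size factors used with edgeR.

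**Figure D2:**
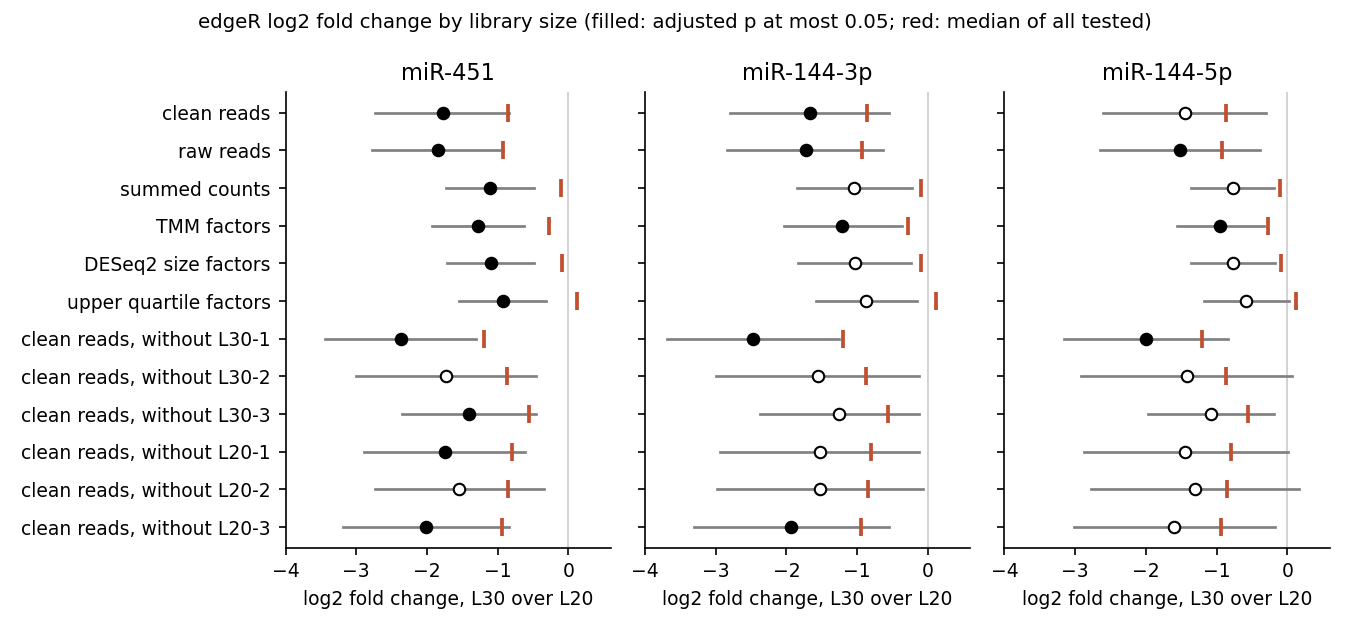
The edgeR log2 fold changes of L30 over L20 (points, with 95% intervals as lines) for the 3 miRNAs under 6 scalings and, with the clean reads, without each library. Filled points have an adjusted p of at most 0.05 and red marks give the median of all tested miRNAs. Every point lies below 0 and left of the red mark beside it, and miR-451 is filled in all 6 scalings.

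The products of the cluster varied together. In all 3, L30-1 was the highest and L30-3 the lowest of the L30 libraries, and L20-2 was the highest and L20-3 the lowest of the L20 libraries, under both scalings. Ratios of counts within a library do not depend on the scaling. The log2 ratio of miR-451 to miR-144-3p was 5.22, 5.53 and 5.65 in L30-1, L30-2 and L30-3, against 5.28, 5.60 and 5.55 in L20-1, L20-2 and L20-3. The level of miR-451 differed 3.61-fold between the highest and the lowest library in RPM, and its ratio to miR-144-3p stayed between 37.2 and 50.1. In TPM the level differed 11.1-fold, but that range includes the miRNA share of the library, which drops out of any such ratio. The mean log2 ratio differed by −0.01 between the ages, and single L30 and L20 livers differed by −0.38 to 0.36 (exact two-sided permutation test, p = 0.9, n = 3 each, adjusted p = 0.9 over 6 exact tests). The counting error of this ratio was at most 0.13 log2 units. The log2 ratio of miR-451 to miR-144-5p was 5.75, 5.65 and 5.67 in L30-1, L30-2 and L30-3, against 6.07, 6.17 and 5.77 in L20-1, L20-2 and L20-3. This ratio was lower in every L30 liver, by 0.31 log2 units on average, and it was examined after the values were seen and carries no test.

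Across the 6 libraries, the standard deviation of the log2 ratio of miR-451 to miR-144-3p was 0.18. The corresponding standard deviation was 0.70 for the share of miR-451 itself, and the median over its ratios to the 235 other tested miRNAs was 0.81. By this measure miR-144-3p took the third place among the 235, behind miR-223 and miR-2188-5p, both at 0.17. MiR-144-5p took the fifth place, at 0.22. The smallest value for miR-144-5p, in turn, was its ratio to miR-460a-3p at 0.11, whereas its ratio to the opposite arm miR-144-3p, at 0.30, was only in place 19 of 235. These values describe 6 libraries that also differ in age and miRNA content, and they carry no test.

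**Figure D3:**
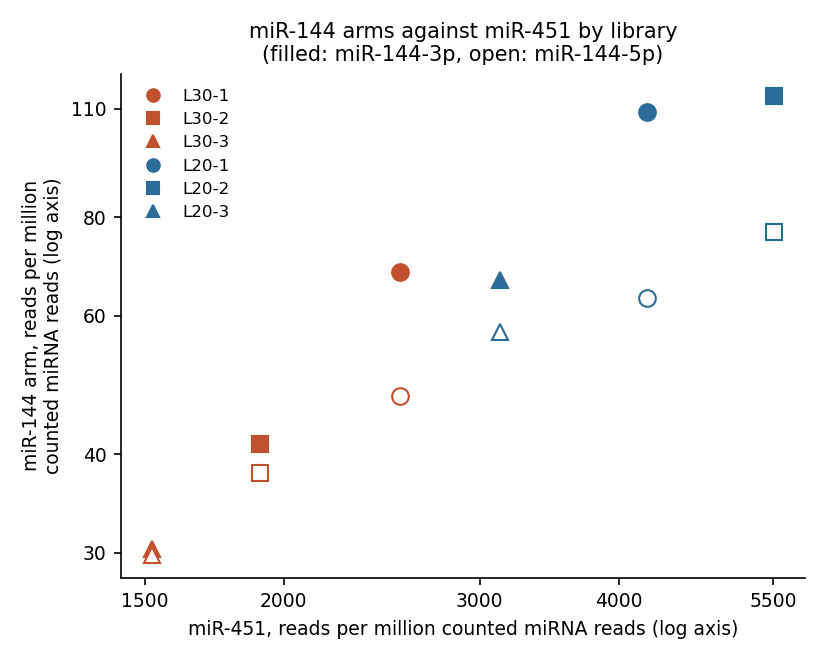
RPM of miR-144-3p (filled) and miR-144-5p (open) against those of miR-451 in the 6 libraries, on log axes. Both arms are lowest in L30-3 (30.3 and 29.8) and highest in L20-2 (114 and 76.7), and they lie closer together toward the low end.

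The balance of the miR-144 arms was less even. The 5p arm took 41.0%, 47.9% and 49.6% of the miR-144 reads in L30-1, L30-2 and L30-3, against 36.7%, 40.3% and 46.3% in L20-1, L20-2 and L20-3. The exact (Clopper-Pearson) 95% interval was 43.0% to 56.2% in L30-3, with 232 reads, and 34.6% to 38.9% in L20-1, with 2023 reads. These intervals did not overlap, but the libraries were picked as those with the highest and the lowest share. Such intervals take reads as independent and cover counting error only, and they may be too narrow because PCR duplicates were not marked. The ages overlapped, as L20-3 lay above L30-1. The mean log2 ratio of the 5p to the 3p arm was −0.22 ± 0.27 in L30 and −0.52 ± 0.29 in L20 (SD, n = 3 each). The difference of 0.30 was close to these standard deviations (exact two-sided permutation test, p = 0.2, adjusted p = 0.24 over 6 exact tests).

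The level of miR-451 was next set against miRNAs that mark other cells of the liver. MiR-122-5p, the main miRNA of hepatocytes, was abundant in all 6 libraries, with 69929 to 93271 RPM in L30 and 88152 to 125104 in L20. The log2 ratio of miR-451 to miR-122-5p was −5.04, −5.62 and −5.52 in L30-1, L30-2 and L30-3, against −4.38, −4.51 and −5.02 in L20-1, L20-2 and L20-3. It was lower in every L30 liver, although L30-1 and L20-3 differed by only 0.02. The mean difference was −0.76 (exact two-sided permutation test, p = 0.1, n = 3 each, adjusted p = 0.24 over 6 exact tests). For miR-144-3p the ratio to miR-122-5p differed by −0.74 on average, with overlapping ages (exact two-sided permutation test, p = 0.2, n = 3 each, adjusted p = 0.24 over 6 exact tests).

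MiR-142-5p, the most abundant leukocyte product, gave a similar picture. The log2 ratio of miR-451 to miR-142-5p was −1.58, −2.08 and −1.66 in L30-1, L30-2 and L30-3, against −1.33, −0.60 and −1.46 in L20-1, L20-2 and L20-3. It was lower in every L30 liver, by 0.65 on average. Against miR-126-5p, an endothelial miRNA, the ages overlapped. The log2 ratio of miR-451 to miR-126-5p was −3.49, −3.80 and −4.38 in L30-1, L30-2 and L30-3, against −3.90, −3.21 and −4.02 in L20-1, L20-2 and L20-3. Against miR-223, a scarcer miRNA of myeloid cells, the ages overlapped too. This ratio was 3.69, 3.24 and 3.51 in L30-1, L30-2 and L30-3, against 3.45, 3.62 and 3.36 in L20-1, L20-2 and L20-3. Its mean differed by 0.01 between the ages, and single L30 and L20 livers differed by −0.38 to 0.34. The ages also overlapped in the log2 ratio of miR-451 to miR-155, another leukocyte miRNA, with a mean difference of −0.12. With the summed counts, miR-142-3p and miR-122-3p fell more than their 5p arms. Their log2 fold changes were −1.05 and −0.78, against −0.43 and −0.35 for the 5p arms and −1.11 for miR-451. Ratios to these 3p arms were not examined. The ratios to miR-142-5p, miR-126-5p, miR-223 and miR-155 were chosen after the values were seen and carry no test.

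**Figure D4:**
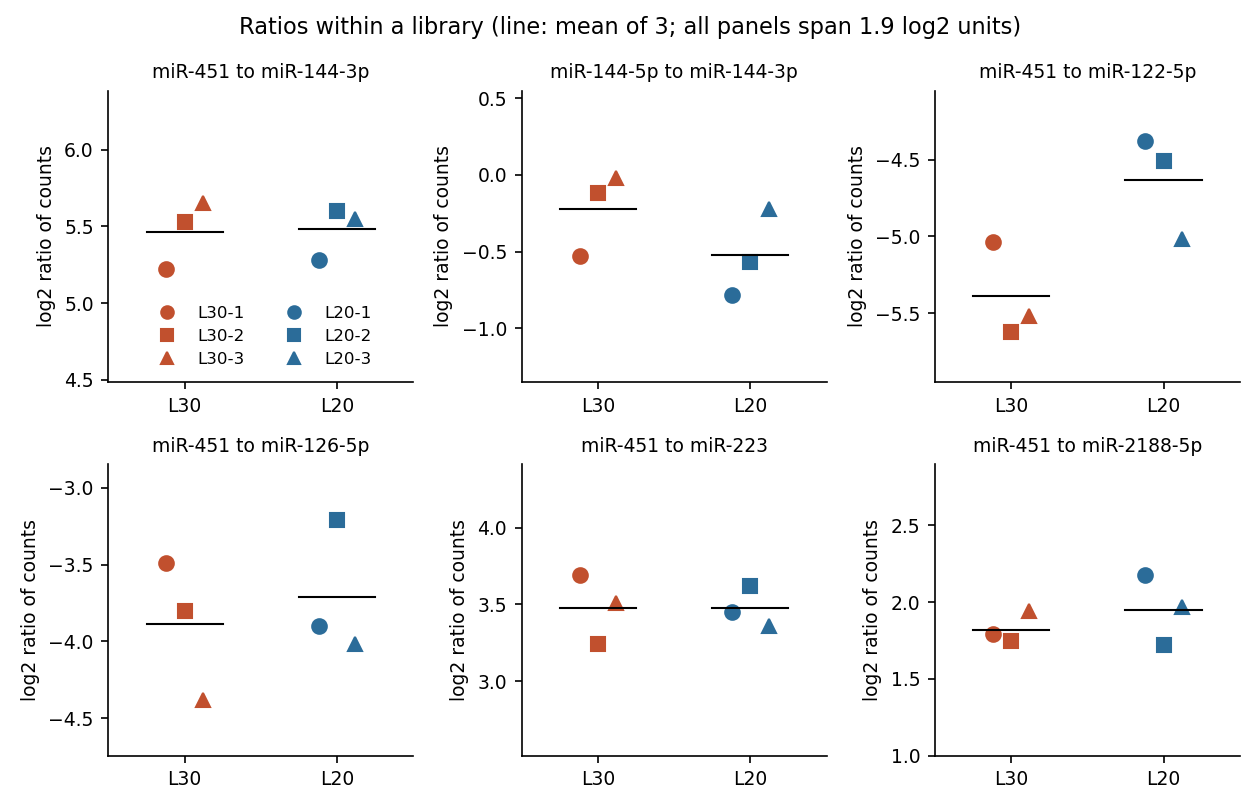
Log2 ratios of counts within each library, with 1 symbol per library and a line for the mean of 3, where every panel spans the same range of log2 units. The ratios of miR-451 to miR-144-3p, miR-223 and miR-2188-5p overlap between L30 and L20, whereas every L30 library lies under every L20 library in the ratio of miR-451 to miR-122-5p (means −5.39 and −4.63).

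The miRNAs whose share of the counted reads was most alike to that of miR-451 over the 6 libraries were, in order of Pearson's r, miR-144-5p (0.988), miR-144-3p (0.973), miR-223 (0.971), miR-2188-5p (0.969) and miR-460a-3p (0.962). The median r over the 235 other miRNAs was 0.22. For miR-144-3p they were miR-155 (0.977), miR-460a-3p (0.974), miR-451 (0.973), miR-144-5p (0.968) and miR-30e-5p (0.956). The points share the age difference, so these coefficients are a description only. MiR-2188-5p had 737, 568 and 397 RPM in L30-1, L30-2 and L30-3, against 936, 1675 and 801 in L20-1, L20-2 and L20-3. Like miR-451, it was highest in L20-2 and lowest in L30-3. With the clean reads it fell by 1.66 ± 0.52 log2 units (edgeR adjusted p = 0.0122), and with the summed counts it was not called (0.055). The first call was lost without L20-1 (edgeR adjusted p = 0.0604), L20-2 (0.228), L30-2 (0.0982) or L30-3 (0.0813), and without L30-1 the log2 fold change was −2.26.

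Other miRNAs that are abundant in red cells of mammals formed a list of 8 names, of which 4 were found, with 5 tested products. Among them 1 was called as lower and 0 as higher with the clean reads, a share close to the 24.6% of all tested miRNAs, and the median log2 fold change of −0.16 lay above the −0.86 of all tested miRNAs. MiR-16-5p, a widely expressed inhibitor of the cell cycle, was the product called as lower, at −1.87 ± 0.49 (edgeR adjusted p = 0.00279). It was still called as lower with the summed counts, at −1.09 (edgeR adjusted p = 0.00512). With the clean reads this call was lost without L20-2 (0.0573) and without L30-2 (0.0597). MiR-92-3p, a product of the miR-17-92 cluster, had 24276, 19995 and 27409 RPM in L30-1, L30-2 and L30-3, against 14755, 11117 and 10486 in L20-1, L20-2 and L20-3. With the summed counts its log2 fold change was 0.98 and it was called as higher (edgeR adjusted p = 0.01, and 0.0518 without L20-3), but with the clean reads it was not called, at 0.18 (0.794), and the sign turned without L30-1. Its partner arm miR-92-5p was likewise called as higher with the summed counts and not with the clean reads. The list count of 1 became 0 without L20-2 or L30-2 and 2 without L30-1. Names with a further letter or number were outside the list, and of these miR-16c-5p was called as lower with the clean reads (edgeR adjusted p = 0.00619), whereas miR-16-1-3p (0.95) and miR-16-2-3p (0.0707) were not. The names miR-363, miR-96, miR-182 and miR-210, and miR-486 among the erythroid miRNAs, were not analysed here.

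MiRNAs that restrain red cell formation in human cells, or fall during it, formed a list of 6 names, of which 4 were found. With the clean reads all 5 of their tested products were called as lower, where 24.6% of all tested miRNAs were, with a median change of −1.94 on the log2 scale. With the summed counts 3 of the 5 were called as lower, where 16.1% of all were, and the median was −1.10. MiR-24-5p was too scarce to be tested. MiR-222 is listed in chicken as miR-222a and miR-222b, which the list names did not match. None of these was called with the clean reads, at −1.06 for miR-222a (edgeR adjusted p = 0.105), −0.09 for miR-222b-3p (0.931) and −0.35 for miR-222b-5p (0.708). The largest change of the 5 was that of miR-24-3p, at −2.81 ± 0.58 (edgeR adjusted p = 9.66e-05), and under both scalings it was still called after leaving out any 1 library. MiR-221-3p, which represses the growth factor receptor KIT in human cells, fell by 1.94 log2 units (edgeR adjusted p = 0.00471), a call that was lost without L20-1 (0.0644), L20-2 (0.07) or L30-2 (0.107), with log2 fold changes of −1.84, −1.89 and −1.64. Of the 5, 2 were called without L20-1 or without L20-2 and 1 without L30-2. MiR-223 and miR-155 are on this list and on that of leukocytes.

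Among the markers of other cells, 3 of 4 leukocyte products were called as lower with the clean reads and 2 of 4 with the summed counts, where 24.6% and 16.1% of all tested miRNAs were. The most abundant of them, miR-142-5p, was not called, at −1.11 with the clean reads (edgeR adjusted p = 0.0596, and 0.0222 without L30-1) and −0.43 with the summed counts (0.179). It had 7599, 8036 and 4832 RPM in L30-1, L30-2 and L30-3, against 10619, 8369 and 8597 in L20-1, L20-2 and L20-3, so it made up most of the list's level. The summed level of the leukocyte list ranged from 5193 to 8535 RPM in L30 and from 9430 to 11623 in L20, so it was lower in every L30 library. Both arms of endothelial miR-126 were called as lower under both scalings, and their summed level ranged from 30113 to 35547 RPM in L30 and from 56766 to 73761 in L20. Of the 2 arms of miR-122, the 3p arm was called as lower under both scalings, and miR-122-5p was not, at −1.07 with the clean reads (edgeR adjusted p = 0.0622, and 0.0184 without L30-1) and −0.35 with the summed counts (0.193). None of the 3 mesenchymal products was called. Their most abundant one, miR-199-3p, had a log2 fold change of −0.65 with the clean reads and 0.10 with the summed counts. The clean-read calls of the leukocyte products became 0 without L20-1, L20-2 or L30-2. Those of miR-126 became 0 without L20-1 or L30-2 and 1 without L20-2. That of miR-122-3p was lost without L20-1, L20-2, L20-3 or L30-2. Without L30-1, 2 mesenchymal products were called. With the summed counts, the call of miR-122-3p was lost without L20-2, L20-3, L30-1 or L30-3. The leukocyte calls then became 1 without L20-2, and those of miR-126 became 1 without L20-3. The names miR-143, miR-145 and miR-150 were not analysed here. In RPM, the summed levels of the cluster, of the leukocyte list and of miR-126 were thus all lower in every L30 library. Such a separation held for 27.5% of the single tested miRNAs. The summed levels of miR-122 overlapped between the ages. The list of miRNAs abundant in mammalian red cells, mostly miR-92-3p by level, went the other way. Its summed level was higher in every L30 library, at 23450 to 30049 RPM against 14947 to 18837 in L20. The part of blood or vessel content in the difference of the cluster was not tested.

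**Figure D5:**
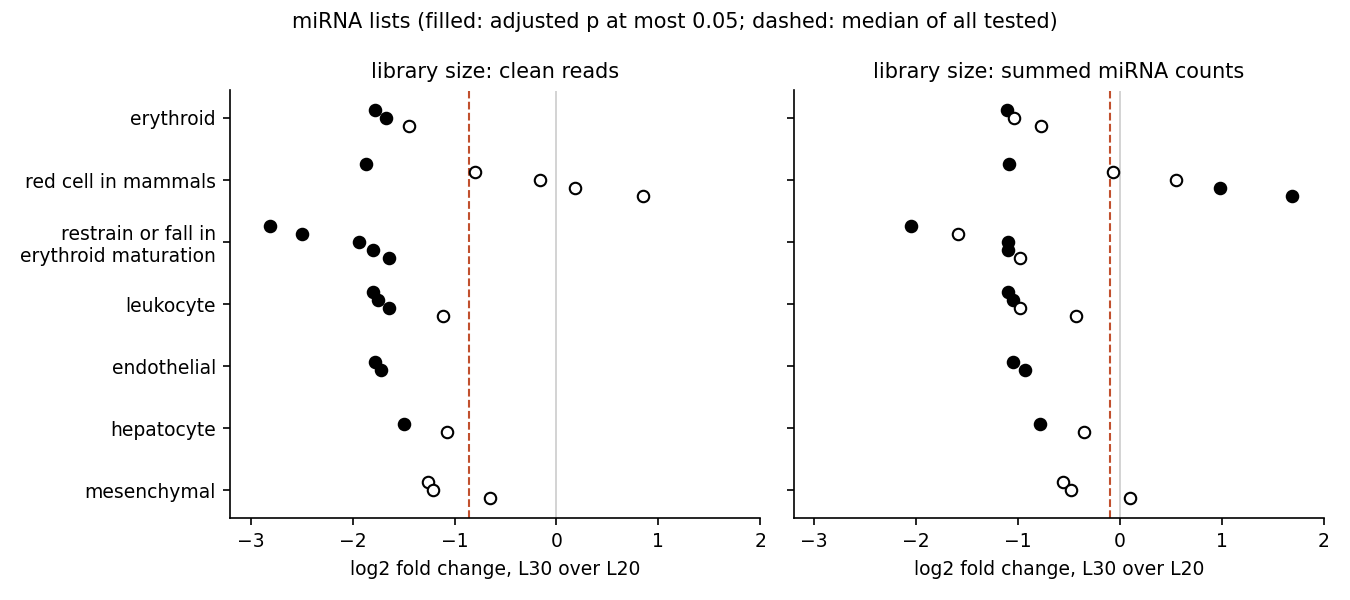
Log2 fold changes of L30 over L20 from edgeR for the tested products of 7 miRNA lists, with the clean reads (left) and the summed miRNA counts (right) as library sizes. Filled points have an adjusted p of at most 0.05 and the dashed line is the median of all 236 tested miRNAs (−0.86 and −0.10). The erythroid, leukocyte, endothelial and hepatocyte products and those that restrain or fall in red cell formation lie left of the dashed line in both panels, whereas those abundant in mammalian red cells lie on both sides of it.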

How the data were processed

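According to the study's methods, clean reads were obtained with the Fastx toolkit 0.0.13.2 and aligned to miRBase 21.0 with CLC Genomics Workbench 5.5, allowing up to 2 mismatches and 2 bases of shortening or extension at the ends. The authors deposited raw read counts of 565 mature miRNAs per library. TPM values were deposited too. Their denominator is the number of raw reads, and TPM as printed here was calculated from the counts with the number of clean reads stated by the study. Groups and replicate numbers come from the sample labels, and each column was matched to its library by name. The products of the cluster and the miRNA lists were chosen with earlier results of these data known.

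The count test was glmQLFTest of edgeR 4.0.16 (R 4.3.3) after a robust glmQLFit. Library sizes were the clean reads, normalization factors were set to 1, and miRNAs were kept by filterByExpr at its default minimum count of 10, which left 236 of them. This test stands in for the pooled Fisher test of the study, which ignores the spread between libraries of an age. The study also measured miR-451 and miR-2188-5p by stem-loop qRT-PCR relative to U6 RNA. It lists both as down-regulated and reports that the qRT-PCR results matched the sequencing. The standard error is the absolute log2 fold change over the square root of F. Ratios used a pseudocount of 0.5 and exact permutation tests over 20 regroupings. Likeness was Pearson's r of log2(RPM + 1), and the 5 highest were named for miR-451 and miR-144-3p. List names took their rows with or without an arm suffix, and the most abundant products were named. Alternatives used raw reads, summed counts, TMM, upper quartile and DESeq2 size factors, DESeq2 1.42.0, Fisher's exact test on pooled counts, limma 3.58.1 after adding 1 to TPM and taking log2, other filters, a replicate block and each library left out. The combination of summed counts with a library left out or with the block was added after seeing the data. The tests of edgeR, DESeq2 and limma were checked on simulated counts with as many miRNAs raised as lowered. This check held no shift common to all miRNAs, so it cannot speak to the effect of the miRNA share on the clean-read calls. Apart from those of the pooled Fisher test, p values weigh the age difference against the variation between libraries of an age. In edgeR, DESeq2 and limma, the variance of each miRNA is estimated at least partly from all tested miRNAs. In edgeR with the clean reads of all libraries, it came almost wholly from them for miR-451 and both miR-144 arms. This can be seen from the width of their 95% intervals in standard errors. Those p values hardly weigh the spread of the single product between libraries. Such pooling treats the miRNAs as independent, although in TPM they all fall with the miRNA share of a library. The exact tests use only the 3 libraries per age and cannot give a p under 0.1.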

Additional observations from a re-analysis of the deposited data

How the results depend on the processing

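The direction of miR-451, miR-144-3p and miR-144-5p was negative in all 24 alternatives. With the clean reads, 80.1% of all tested miRNAs had this direction. MiR-451 was called in 19 of the 24 alternatives, miR-144-3p in 12 and miR-144-5p in 9. MiR-144-3p was not called with the summed counts (−1.04), DESeq2's size factors in edgeR (−1.03) or upper quartile factors (−0.87). Its other losses came on leaving out a library. MiR-144-5p was called with raw reads (−1.52), TMM factors (−0.95), DESeq2 (−0.69), limma (−1.54), Fisher's exact test on pooled counts (−1.53) and at least 10 counts in every library (−1.45). Its other calls were those with a replicate block and, with the clean reads, without L30-1. With each library left out, under clean reads or summed counts, the log2 fold change ranged from −2.37 to −0.89 for miR-451, from −2.47 to −0.81 for miR-144-3p and from −2.00 to −0.62 for miR-144-5p, and that of the log2 ratio of miR-451 to miR-144-3p from −0.11 to 0.11. The number of called miRNAs was 58, against 90 with DESeq2 (48 lower, 42 higher), 205 with Fisher's test and 6 to 102 with a library left out. The split of lower and higher calls was 38 and 29 with summed counts, 55 and 21 with TMM factors, 25 and 41 with upper quartile factors and 38 and 33 with DESeq2's size factors in edgeR, where it was 58 and 0 with the clean reads. MiR-199-3p turned positive with summed counts (0.10), upper quartile factors (0.35), DESeq2's size factors in edgeR (0.12) and DESeq2 (0.20), and ranged from −1.09 to 0.49 with a library left out, and miR-92-3p from −0.19 to 1.15. The cause of these changes was not tested.

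Libraries of the same replicate number came from different hens. Their deviations from the group means correlated at −0.0478, 0.222 and 0.167 for numbers 1, 2 and 3. L30-2 and L30-3 correlated best with the L20 library of their own number, whereas L30-1 correlated best with L20-2 (0.066). With 3 libraries per age, these values cannot decide whether libraries of the same number share more than the number. With the replicate block, 90 miRNAs were called and miR-144-5p was among them (−1.64). With the block and summed counts, miR-144-5p (−0.79) and miR-144-3p (−1.09, edgeR adjusted p = 0.0172) were called and miR-199-3p was positive (0.17). The miR-144 arms rest on 115 to 1684 reads per library, which limits the precision of their ratio.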
